A study of Mus musculus with 6 samples.

Results

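The kinases described here are the non-receptor tyrosine kinases that start signalling at platelet and immune receptors: the Src family kinases Src, Fyn, Yes1 and Fgr, their inhibitory kinase Csk, the kinase Syk, and the Tec family kinases Btk and Tec. They were measured in mouse megakaryocytes labelled as a Gata-1 knock down, 3 arrays, and in megakaryocytes labelled as wild type, 3 arrays. Every probe set was taken for which the platform annotation named a single gene and that gene was a member, which gave 17 of the 45101 probe sets of the array, for 8 of the 18193 genes so named. A ninth gene, Lyn, was named for no probe set in that annotation and was not analysed here. Of the 17 probe sets, 14 were bright enough to be tested, and the other 3 were all of Yes1.

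According to the labels, both groups were grown in culture from progenitors of fetal liver at embryonic day 13.5, and the megakaryocytes were enriched on a gradient of bovine serum albumin before RNA was taken. GATA1 is a zinc finger transcription factor required for megakaryocyte and red cell maturation. The allele, the strain, the way in which GATA1 was lowered and the number of animals or cultures behind each array are not stated in the labels, so p-values measure the spread between these arrays, which may be technical. Gata1 read 153.5, 143.3 and 195 in knockdown A, B and C and 8724, 8247 and 8496 in wild type A, B and C, a log2 fold change of -5.52 ± 0.12 (SE). Of 9 megakaryocyte markers with a probe set, 9 were above the background controls on all 6 arrays, and 7 were lower in knockdown and 2 did not pass the test (6 lower with the values as deposited or with median centring), so the defining markers of the labelled cell type were present in both groups. Median signals were 111.3, 138 and 118 in knockdown A, B and C and 101.6, 104.4 and 101.8 in wild type A, B and C. Background was 82.2, 132 and 79.8 in knockdown and 65.8, 65.3 and 60.7 in wild type. Knockdown B was highest in both, and every knockdown array exceeded every wild-type array in both. An effect of array brightness therefore cannot be told apart from one of the group. The number of arrays limits the precision.

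Src family kinases are anchored to the inner face of the membrane and are held in a closed, inactive form when a tyrosine in their C-terminal tail is phosphorylated. Csk and its relative Matk place that phosphate, and receptor phosphatases such as CD45 (Ptprc) and CD148 (Ptprj) remove it. In platelets, Src family kinases phosphorylate the tyrosine motifs of the collagen receptor GPVI and of CLEC-2, Syk docks there through its paired SH2 domains, and Btk and Tec, recruited to membrane phosphoinositides, then help to activate phospholipase C gamma 2. Src also binds the tail of integrin beta 3 and starts the signals that follow platelet adhesion.

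The kinase genes were lower in knockdown or did not pass the test, and none was called higher. Tec fell most, to 33.0% of the wild-type mean signal, and Src fell to 45.3% and 54.1% by its 2 probe sets. Fyn, Csk, Syk and Btk fell by small amounts, to between 70.2% and 82.9% of the wild-type mean for the probe sets called. Fgr lay not far above background and did not pass, and Yes1 was above background by 1 of its 4 probe sets on 1 array. A probe set was called when its adjusted p, from limma with Benjamini-Hochberg adjustment over the 31526 tested, was under 0.05. By that rule 8 of the 14 tested kinase probe sets were lower, 0 were higher and 6 did not pass. Over the whole table, 30.4% of tested probe sets were called, 14.3% lower and 16.1% higher. The median log2 fold change was -0.22 over the 14 and 0.04 over all probe sets tested. Signals of the 3 knockdown arrays lay below all 3 wild-type signals for 9 of the 14 probe sets, where 16.9% of all tested probe sets showed that order.

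The size of these counts rested on how the spread was estimated. In the fit the spread of a probe set was drawn toward that of others of like brightness, and when it was drawn toward a single value for all, 3 of the 14 probe sets were called lower, those of Src and Tec, with 11.8% of the whole table called lower. The calls of Fyn, Csk, Syk and Btk were lost there, with limma adjusted p between 0.0569 and 0.127. Without knockdown B, the array that stood apart, 8 kinase probe sets were called lower and 0 higher. In bulk RNA, fewer cells of a type and less RNA per cell cannot be told apart.

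**Figure D1:**
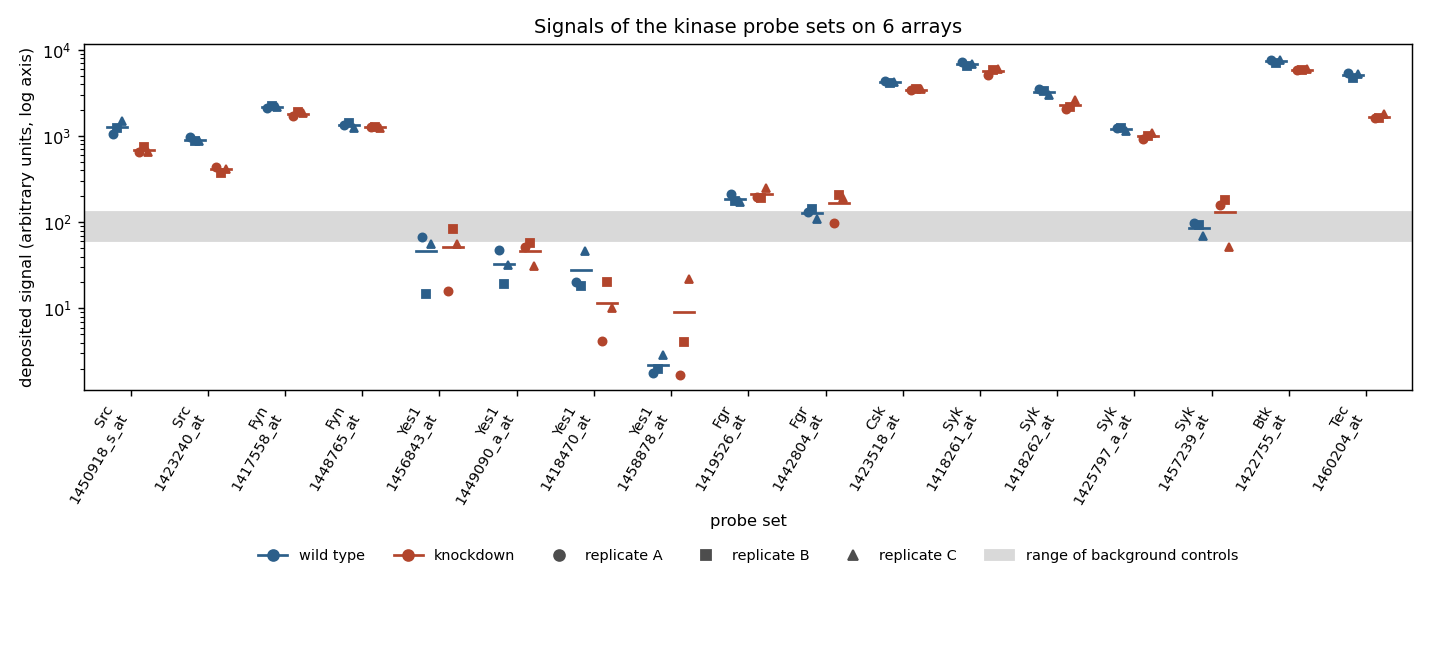
Deposited signal (arbitrary units, log axis) of each of the 17 kinase probe sets on the 3 wild-type and 3 knockdown arrays, with marker shape for the replicate letter, a bar for each group mean and a grey band for the range of the background controls over the arrays. The groups are separate for Src, Csk, Btk and Tec, among others, and the probe sets of Yes1 lie in or below the background band.

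**Figure D2:**
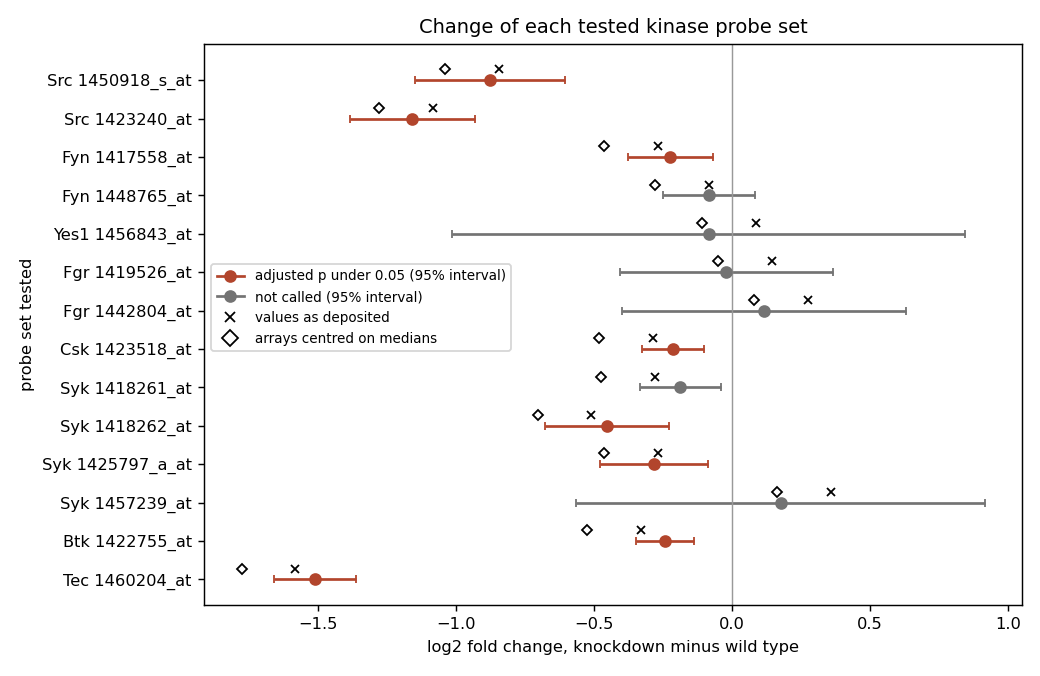
Log2 fold change (knockdown minus wild type) of the 14 tested probe sets with its 95% interval, and the same value without further normalization (crosses) and with arrays centred on their medians (diamonds). Yes1 is a difference between values mostly at background. Tec and Src lie furthest below 0 under each scaling, and the bright probe sets of Fyn, Csk, Syk and Btk lie further below 0 with median centring.

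GATA factors are known to bind the core GATA, so the 250 bases before each gene's start in RefSeq (GRCm38.p6) were searched on both strands for it in its 4 longer forms. These were AGATAA or its variant AGATAG, as well as TGATAA or its variant TGATAG; no other motif was searched. The letters of these 4 forms were found in 2 of 10 windows of the 8 kinase genes and in 26.5% of all 32851 windows of that length in the table. The windows of Tec and Src are shown because these genes changed most, and those of Fyn and of the downstream start of Syk because they hold the letters, given in capitals. All 4 are written 5′ to 3′ on the gene's strand. Tec lies at chr5:72868449-72868698 (minus strand), Src at chr2:157424043-157424292 (plus), Fyn at chr10:39369549-39369798 (plus) and the Syk start at chr13:52596632-52596881 (plus).
Tec: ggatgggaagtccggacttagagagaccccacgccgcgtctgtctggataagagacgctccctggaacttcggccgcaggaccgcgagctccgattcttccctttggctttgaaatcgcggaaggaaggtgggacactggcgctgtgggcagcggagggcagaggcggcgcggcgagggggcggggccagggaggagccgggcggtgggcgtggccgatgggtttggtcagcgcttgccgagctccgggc
Src: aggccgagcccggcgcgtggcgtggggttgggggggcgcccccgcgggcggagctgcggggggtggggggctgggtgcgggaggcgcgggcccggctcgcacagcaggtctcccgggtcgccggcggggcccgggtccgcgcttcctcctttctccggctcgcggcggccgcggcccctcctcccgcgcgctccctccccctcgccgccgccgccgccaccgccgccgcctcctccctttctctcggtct
Fyn: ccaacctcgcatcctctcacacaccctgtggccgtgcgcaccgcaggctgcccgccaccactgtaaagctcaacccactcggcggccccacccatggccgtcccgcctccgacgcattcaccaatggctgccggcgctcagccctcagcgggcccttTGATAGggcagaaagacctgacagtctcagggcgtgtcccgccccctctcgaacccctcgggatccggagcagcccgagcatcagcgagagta
Syk: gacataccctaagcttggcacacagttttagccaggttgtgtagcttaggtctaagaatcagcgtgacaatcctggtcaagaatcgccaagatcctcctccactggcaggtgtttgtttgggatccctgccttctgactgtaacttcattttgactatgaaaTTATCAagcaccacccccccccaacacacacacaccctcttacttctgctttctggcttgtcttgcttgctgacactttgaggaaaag
The Fyn window holds TGATAG on the gene's strand, its last base lying 88 bases before the first base of the gene. The Syk window holds TTATCA, which is TGATAA read on the opposite strand, its last base lying 83 bases before the first base of that transcript. The windows of Tec and Src hold none of the 4 forms searched. The Tec window does hold the core GATA, in GGATAA, a form that was not searched. Tec is not alone in this, as the window of Btk, not shown, holds the core in AGATAC. The share of all windows with the bare core was not counted. The window of Src is 82.8% G and C, that of Tec 68.4%, that of Fyn 67.2% and that of this Syk start 47.6%. A match is a string of letters and not a measured binding site, and no binding was measured in this series.

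Among the Src family kinases, Src itself, the founding member and the kinase bound to integrin beta 3 in platelets, was clearly lower in knockdown. Its probe set 1423240_at read 442, 376 and 413 in knockdown A, B and C and 966, 885 and 869 in wild type A, B and C. All knockdown values lay below all wild-type values, and the spread within each group was small beside the gap. Mean signal was 411 ± 33.0 against 907 ± 51.8 (SD, n = 3 per group), with a log2 fold change of -1.16 ± 0.10 (SE) and a limma adjusted p of 1.48e-05.

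The other Src probe set, 1450918_s_at, whose suffix marks probes that may be shared by several transcripts, read 659, 745 and 647 in knockdown and 1069, 1237 and 1480.5 in wild type. Wild type C was the highest of its group, and the groups did not overlap. This was a log2 fold change of -0.88 ± 0.12, with a limma adjusted p of 0.000339. The log2 ratio of Src 1423240_at to 1450918_s_at within an array changed by -0.28, and the groups overlapped (exact permutation p = 0.4, two-sided, n = 3 each). The smallest p possible was 0.1, so this does not show that both fell equally. The ratios of Fyn 1417558_at to 1448765_at (-0.14) and of Syk 1418262_at to 1418261_at (-0.27) did separate the groups (exact permutation p = 0.1 each). Of 14230 genes tested, 925 had a log2 fold change as low as that of Src by 1450918_s_at, its brightest probe set.

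Fyn, which with Lyn phosphorylates the GPVI receptor complex in platelets, was lower by 1 of its 2 probe sets, by an amount that varied with the scaling. Its probe set 1417558_at read 1713, 1892 and 1859 in knockdown and 2141, 2251 and 2199 in wild type. The groups were separate, with knockdown A lowest. The log2 fold change was -0.22 ± 0.07, with a limma adjusted p of 0.0333. That call was lost without knockdown C or without any 1 wild-type array, with adjusted p from 0.067 to 0.13. It was also lost with all tested probe sets of Fyn averaged, where the log2 fold change was -0.15 and the adjusted p 0.0769. The other probe set, 1448765_at, read 1276, 1265 and 1253 in knockdown and 1351, 1427 and 1251 in wild type. Wild type C lay below all 3 knockdown arrays, and the log2 fold change of -0.08 did not pass (limma adjusted p 0.464, 95% interval -0.25 to 0.08). With median centring the values were -0.46 (adjusted p 0.00267) for the first probe set and -0.28 (0.0817) for the other.

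Fgr, a Src family kinase of neutrophils and macrophages, was dim and did not pass. Its probe set 1419526_at read 195, 191 and 246.5 in knockdown and 210.1, 179 and 172 in wild type, and 1442804_at read 97.7, 208 and 192.5 against 129.8, 140.7 and 108.9. Each value was above the background control of its array, and the groups overlapped for both probe sets. The log2 fold changes were -0.02 (95% interval -0.41 to 0.37) and 0.12 (-0.40 to 0.63), so a change inside these intervals was not excluded.

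Yes1, a broadly expressed Src family kinase, was near the floor of the array. Its 3 untested probe sets read between 1.7 and 56.8, each at or below the background control of its array. The tested probe set, 1456843_at, read 16.0, 82.4 and 56.5 in knockdown and 67.2, 14.7 and 55.4 in wild type, and only wild type A exceeded its background control. Its fitted log2 difference of -0.08 (95% interval -1.01 to 0.85) did not pass and, with 5 of 6 arrays at background, is not read as a fold change.

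Csk, which phosphorylates the inhibitory tail tyrosine of Src kinases, was slightly lower in knockdown. Its probe set 1423518_at read 3416, 3479 and 3515 in knockdown and 4325, 4176 and 4225 in wild type. The arrays of each group lay close together, and the groups were separate. The log2 fold change was -0.22 ± 0.05, with a limma adjusted p of 0.00855, and it was -0.48 with median centring of the arrays.

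Matk, the Csk-homologous kinase of blood cells, which is no member but shares the role of Csk, changed the other way. It read 399, 344 and 375 in knockdown and 128, 126.5 and 141 in wild type. All knockdown values lay far above the wild-type values, and the signals exceeded background on each array. Its log2 fold change was 1.15 ± 0.14, with a limma adjusted p of 0.000156, and its call held in all 16 alternative settings tried.

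The fitted fall of Src was larger than those of Csk and Fyn. Within each array, the normalized value of Src 1423240_at was divided by that of Csk, which gave 0.13, 0.106 and 0.12 in knockdown and 0.237, 0.224 and 0.223 in wild type. Only the change of such a ratio has a meaning, since different probes do not measure levels on a common scale. The log2 ratio of Src to Csk changed by -0.94 and that of Src to Fyn 1417558_at by -0.94. These used the Src probe set with the larger fall. By its brightest probe set, added after seeing the data, the changes were -0.66 and -0.65. The groups did not overlap in any of these 4 ratios, and each exact permutation p was 0.1, two-sided, the smallest that 3 arrays against 3 allow, so no p of the 8 such ratios compared could pass.

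Syk, the kinase that docks on phosphorylated receptor motifs, was slightly lower by its 3 bright probe sets, of which 2 passed. Its brightest probe set, 1418261_at, read 5129, 5794 and 6002 in knockdown and 7244, 6492 and 6811 in wild type. The groups were separate, yet the log2 fold change of -0.19 ± 0.07 did not pass (limma adjusted p 0.0588). Leaving out 1 array gave -0.22 to -0.12 and no call, with the smallest fall without knockdown A and the largest adjusted p, 0.220, without wild type A. It did pass without quantile normalization (-0.28), with median centring (-0.48) and when the dimmer 50% of probe sets were left out (-0.19, adjusted p 0.049).

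The probe set 1418262_at of Syk read 2052, 2179 and 2642 in knockdown and 3494, 3341 and 2961 in wild type. Knockdown C was the highest and wild type C the lowest of its group, and the groups did not overlap. Their log2 fold change was -0.45 ± 0.10, with a limma adjusted p of 0.00641. The probe set 1425797_a_at read 917, 1002 and 1080 in knockdown and 1243, 1239 and 1143 in wild type, with a log2 fold change of -0.28 ± 0.09 and a limma adjusted p of 0.0333. Its call was lost without knockdown A or without any 1 wild-type array (adjusted p 0.0503 to 0.121). The remaining probe set, 1457239_at, read 159, 181 and 51.8 in knockdown against 97.3, 91.7 and 69.0 in wild type. These values overlapped and lay close to background, knockdown C below it, and the change did not pass (adjusted p 0.747).

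Btk, the Tec family kinase named for Bruton's agammaglobulinaemia and the partner of Tec in platelets, was slightly lower. Its probe set 1422755_at read 5806, 5808 and 6087 in knockdown and 7552, 7048 and 7695 in wild type. Knockdown values were close together, and all lay below the lowest wild-type value, that of wild type B. Mean signal was 5900.2 ± 161 against 7432 ± 340.2 (SD, n = 3 per group). This gave a log2 fold change of -0.24 ± 0.05, with a limma adjusted p of 0.00275, and it was -0.53 with median centring.

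Tec, the founding kinase of its family, had the largest change among the 14 tested kinase probe sets. Its probe set 1460204_at read 1629, 1614 and 1803 in knockdown and 5337, 4779 and 5192 in wild type. The highest knockdown value lay far below the lowest wild-type value. Mean signal was 1682 ± 105 against 5103 ± 289 (SD, n = 3 per group). The fitted log2 fold change was -1.51 ± 0.07 (limma adjusted p 1.37e-07). Of 14230 genes tested, 321 had a log2 fold change as low, against 3916 for Btk.

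The fitted fall of Tec was larger than that of Btk. The normalized ratio of Tec to Btk within an array was 0.274, 0.277 and 0.297 in knockdown and 0.704, 0.669 and 0.669 in wild type. No knockdown ratio reached the lowest wild-type ratio, and the change was -1.27 on the log2 scale (exact permutation p = 0.1, two-sided, the smallest possible). The 3 genes whose profiles over the 6 arrays lay nearest to that of Tec, by the root mean square difference of centred log2 values, were Lipa (0.0245), Ptprj (0.0378) and Cers4 (0.043). For Fgr, whose brightest probe set had the change nearest to a rise among these kinases, they were Thop1 (0.0392), Srpk2 (0.0406) and Cbr1 (0.0548).

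The other genes of the pathway were read from 5 lists of 107 genes, of which 98 had a probe set and 94 were tested, each gene by its brightest probe set. Of the 94, 38 were lower, 17 were higher and 39 did not pass, where 35.5% of all 14230 genes tested were called, 17.1% lower and 18.3% higher. The split depended on the scaling. Rises made up 30.9% of calls in the lists here, 29.4% with the values as deposited and 16.4% with median centring. Over all probe sets tested, 4515 of the 9577 called were lower here. With the values as deposited 4167 of 10426 were lower, and with median centring 5333 of 7942. The drop in rises with centring, here and in the counts below, was therefore not particular to the lists. Without knockdown B, 42 genes of the lists were lower and 15 higher. The largest limma adjusted p among the list genes named as called below was 0.0353, that of Tnk2.

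**Figure D3:**
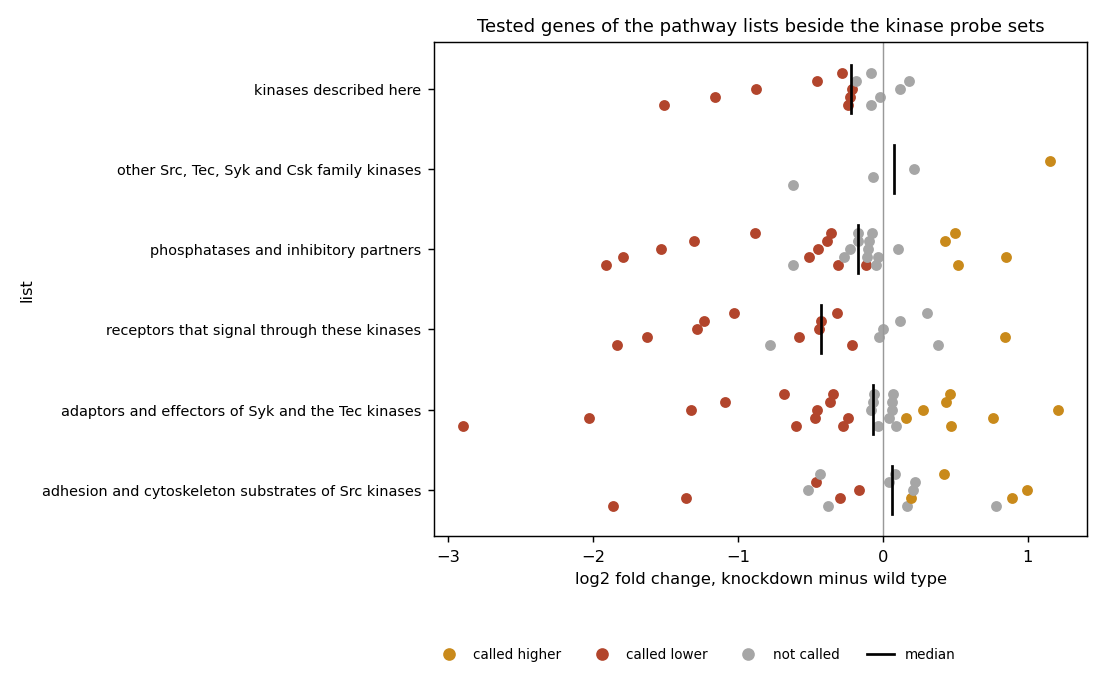
Log2 fold change (knockdown minus wild type) of each tested gene of the 5 pathway lists, with the 14 kinase probe sets in the top row. Points are coloured by call and the black bar is the median, which lies furthest below 0 for the receptors, at -0.43.

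Of 11 other kinases of the Src, Tec, Syk and Csk families, 8 had a probe set and 4 were tested. Matk rose, 0 fell, and Txk, Srms and Zap70 did not pass. The untested Blk, Frk, Ptk6 and Bmx, kinases of B cells, epithelia and endothelium, had group means between 9.47 and 44.9, and each was at or below the background control on each array, apart from Blk on wild type A.

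Among 27 tested phosphatases and inhibitory partners, 11 fell, 4 rose and 12 did not pass, with a median log2 fold change of -0.17 (0.03 over all genes tested). Ptprj, the receptor phosphatase that activates Src family kinases in platelets, read 1480, 1401 and 1673 in knockdown and 4730.3, 4466 and 4572 in wild type. The groups were far apart, and the log2 fold change was -1.53 ± 0.07. The adhesion receptors Ceacam1 and Pecam1, whose inhibitory tail motifs recruit phosphatases, fell too, with log2 fold changes of -1.91 and -1.79. Pag1, the membrane adaptor that brings Csk to Src kinases, rose by 0.85, a call lost with all its probe sets averaged (0.44, adjusted p 0.0577). The phosphatases Ptpn22 and Ptpn6 rose by 0.52 and 0.50, and Ubash3a, a suppressor of Syk family signalling named after its value was seen, by 0.43. Ubash3b of the same list, named on the same basis, was at -0.23 and did not pass (limma adjusted p 0.0705). With median centring 17 fell and 2 rose, and Ptpn6 and Ubash3a no longer passed.

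Of 17 tested receptors that signal through these kinases, 10 fell, 1 rose and 6 did not pass, with a median log2 fold change of -0.43. The median was -0.33 with 2 genes, each at background on at least 2 arrays of 1 group, set at their bounds. Cd79a and Fcer1a, at background on at least 2 arrays of both groups, had no bound and kept their fitted values. The call of Clec1b, the receptor CLEC-2, rested on quantile normalization: it was -0.21 there, 0.07 with the values as deposited (adjusted p 0.593) and -0.12 with median centring (0.328), so 9 fell under either of the latter. Gp6, the collagen receptor GPVI, read 1593, 1857 and 1474 in knockdown and 5832, 4964.5 and 5199 in wild type. The groups were far apart, with a log2 fold change of -1.63 ± 0.10. The scavenger receptor Cd36 and Tyrobp, the DAP12 signalling chain of myeloid and natural killer cells, fell with log2 fold changes of -1.83 and -1.28. Kit, the stem cell factor receptor, was the gene that rose, by 0.84. Fcer1g, the signalling chain that pairs with GPVI, had a log2 fold change of -0.00058 and did not pass (adjusted p 0.994); it was named after its value was seen.

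Among 28 tested adaptors and effectors of Syk and the Tec kinases, 12 fell, 7 rose and 9 did not pass, with a median of -0.07. Rasgrp2, the calcium-driven activator of Rap1 in platelets, read 764, 907 and 871 in knockdown and 6746, 6510.3 and 6620 in wild type. No other gene of the 5 lists fell as far, at -2.90 ± 0.08. The adaptor Nck2 and the phosphoinositide kinase adaptor Pik3ap1 fell with log2 fold changes of -2.03 and -1.32. Lat2, a membrane scaffold of the Lat type, rose by 1.21, the lipid kinase Pik3cg by 0.76 and the scaffold Lat by 0.47.

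Plcg2, phospholipase C gamma 2, the main substrate of Btk and Tec in platelets, was named after its value was seen. It read 9536, 10170.1 and 10409 in knockdown and 7916, 7228 and 7805 in wild type, so the groups were separate. On the log2 scale the change was 0.43 ± 0.04 (limma adjusted p 4.74e-05), a call that median centring ended (0.20, adjusted p 0.125). Under that centring 14 genes of this list fell and 3 rose.

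Of 18 tested adhesion and cytoskeleton substrates of Src kinases, 5 fell, 4 rose and 9 did not pass, with a median log2 fold change of 0.06. Dab2, an endocytic adaptor, Cass4, a docking protein of the Cas family, and Ptk2b, a relative of focal adhesion kinase, fell with log2 fold changes of -1.87, -1.36 and -0.46. Tns1 (tensin), Pxn (paxillin) and Cttn (cortactin) rose by 0.99, 0.89 and 0.42. Pxn read 3502.5, 3680.3 and 3288.5 in knockdown and 2079, 1964 and 1790.1 in wild type, with no overlap. The other genes called, Hcls1 and Tln1 lower and Tnk2 higher, were chosen for naming once their values of -0.29, -0.17 and 0.20 were known. The calls of Tln1 and Tnk2 were weak. Tln1 had overlapping deposited signals and lost its call in 7 of 16 settings, at -0.08 with the values as deposited (adjusted p 0.308). Tnk2 lost its call in 9 settings, and its sign turned with median centring (-0.06). With that centring 6 genes of the list fell and 2 rose, and Cttn was at 0.14 (adjusted p 0.418).

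Several of these kinases are expressed in myeloid, mast and lymphoid cells too, so markers of those cells were read beside them. Macrophage and monocyte markers were lower in 9 of 10 tested and higher in 0, with a median log2 fold change of -1.39. The summed signal of the 15 markers with a probe set was 12476 to 12833 in knockdown and 30910.2 to 31573 in wild type. Marco, Cd163, Clec4f, Timd4 and Spic of that list were within background on each array. Of 13 tested neutrophil markers, 10 fell, 0 rose and 3 did not pass (median -1.39), and the sum of 14 was 3513 to 3673 in knockdown and 12143 to 12614 in wild type.

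Of 11 tested markers of mast cells and basophils, 8 were called lower, 0 higher and 3 did not pass. For 6 of the 8, at least 2 of the 3 knockdown arrays lay at background, so that their falls are bounds. The median over the 11 was -1.04 with 7 such genes at their bounds. Fcer1a and Tpsab1, at background on all 3 knockdown arrays, had no bound and entered that median with their fitted values. The list had a summed signal of 1331 to 1586 in knockdown and 4662 to 5263 in wild type. B cell markers were dim. Of 7 tested, Blnk fell and the other 6 did not pass, and their sum over 9 was 642 to 970 in knockdown and 680 to 814 in wild type. Of 7 tested T and NK cell markers, 0 passed, at sums over 9 of 1250 to 1941 and 1322 to 1532. No marker of these lists had a signal of 0 on any array. The erythroid markers changed both ways, with 4 lower, 1 higher and 4 not passing, at sums over 9 of 8349 to 8562 in knockdown and 22377 to 22737 in wild type. Much of the difference between these sums was that of Hbb-y, with mean signals of 1125 in knockdown and 9747.5 in wild type. With median centring 4 erythroid markers were lower and 0 higher.

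**Figure D4:**
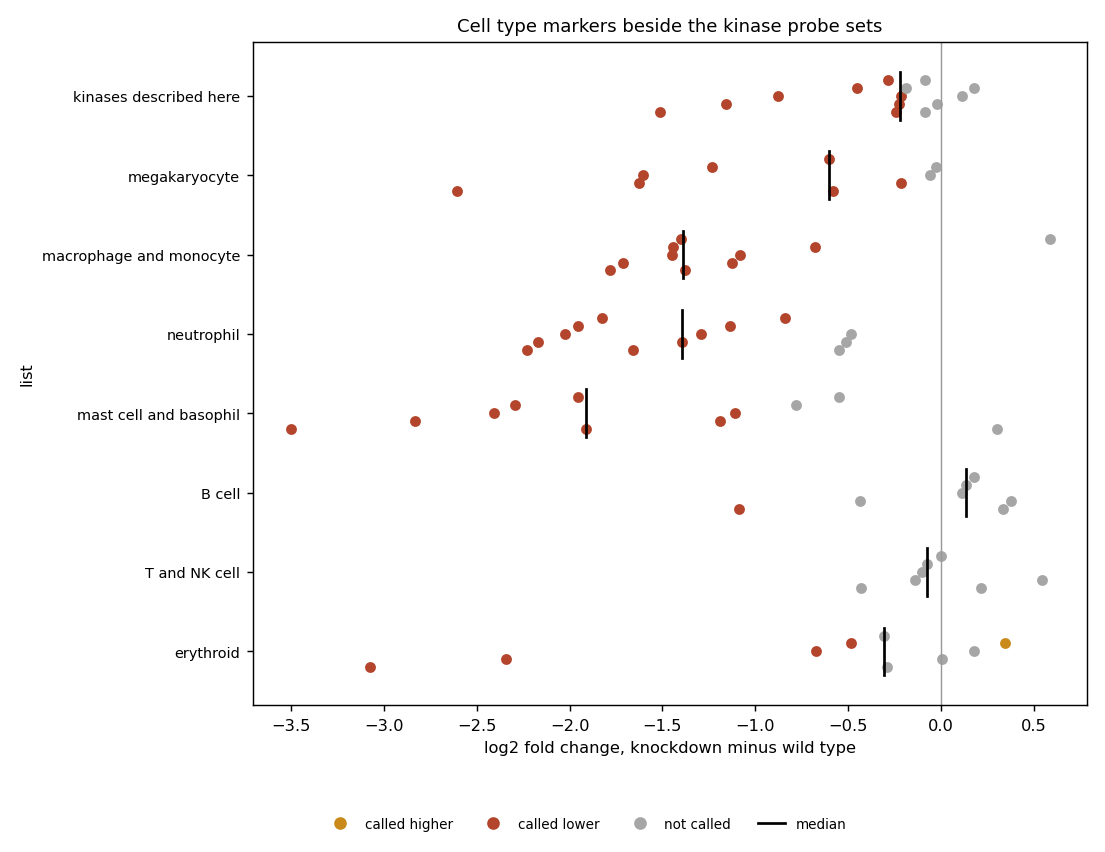
Log2 fold change (knockdown minus wild type) of each tested marker of 7 cell types, with the 14 kinase probe sets in the top row. Points are coloured by call and the black bar is the median, which lies near -1.39 for macrophage and neutrophil markers and at -0.22 for the kinases. Points of mast cell and basophil markers are fitted values and for 7 genes only bounds hold. Fcer1a and Tpsab1 of that list lay at background in knockdown and had no bound.

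Tec changed by -1.51 and Src by -1.16 and -0.88, and Btk, Syk and Csk changed by less. Tested macrophage and monocyte markers ran from -1.78 for Fcgr1 to 0.59 for Vcam1, with a median of -1.39. Among them Csf1r was at -1.40 and Adgre1 at -1.44. Tested megakaryocyte markers ran from -2.61 for Tubb1 to -0.03 for Itga2b, with a median of -0.60, Gp6 at -1.63 and Vwf at -1.60. Fgr was dim, not far above background. Its value of -0.02 did not pass, and its fitted interval ran from -0.41 to 0.37. The part of any of these cell types in the changes of the kinases was not tested.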

How the data were processed

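The series holds 6 arrays, 3 labelled as a Gata-1 knock down and 3 as wild type, grouped by their titles. The authors deposited signal intensities on a linear scale, as the values show. The mean of each column with 2% trimmed at each end was 500.0, so a common scaling had been applied; the software is not given in the sources used here. Symbols came from a platform annotation, in which 34945 probe sets name 1 gene, 932 several and 9160 none, the 64 controls aside. Members and gene lists were chosen with earlier results of these data known.

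Values were tested as log2(signal + 32) after quantile normalization, since array medians spanned 0.346. Controls and probe sets below the 30th percentile of mean log2 value were left out, which left 31526. Groups were compared with limma 3.58.1 in R 4.3.3 (lmFit, eBayes with trend, group as the only term, two-sided, Benjamini-Hochberg adjustment over all probe sets tested); the script was tested on simulated data. Fold changes are on this offset scale, which understates the change of dim genes, and signals and SD are as deposited. Background on an array was the highest of 27 Bacillus control signals. A gene was read by its brightest probe set. Named from each list were up to 3 genes called in each direction with the largest changes. Other tests were exact permutation tests over arrays (scipy 1.17.1). The replicate letters were not used as a block.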

Additional observations from a re-analysis of the deposited data

How the results depend on the processing

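Over 16 alternative settings the 14 kinase probe sets gave 211 recomputed values, of which 183 kept their direction and their side of the threshold, 16 lost and 3 gained the call, and 9 changed sign. Tec (-1.78 to -1.47) and Src (-1.28 to -1.04 and -1.04 to -0.75) passed in each setting in which they were tested. The count called lower was 3 with eBayes without trend, in place of 8, and the count called higher stayed 0. Leaving out 1 array gave 6 to 8 called lower, 7383 to 10709 probe sets called in the whole table, and 14 to 17 higher and 31 to 42 lower in the pathway lists, where centring arrays on their medians gave 9 higher in place of 17. The labels do not say whether the letters shared by the groups pair the arrays. Deviations of same-lettered arrays correlated at -0.0423, -0.0174 and -0.00958, and those of differently lettered arrays at -0.0214 to 0.0388. With 3 arrays in each group, such values cannot decide whether the letters pair the arrays. With the replicate block, 6 kinase probe sets were called lower, Fyn and Syk 1425797_a_at losing their calls.

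The 9 sign changes were of probe sets that were not called in either setting. Fgr 1419526_at was at 0.146 with the values as deposited, 0.0482 with probe sets averaged and -0.141 to 0.0878 with 1 array left out. The fitted difference of Yes1, at background on 5 of 6 arrays and not read as a fold change, was 0.0878 with the values as deposited and -0.438 to 0.215 with 1 array left out. With 1 array left out, Fgr 1442804_at ranged from -0.00403 to 0.35 and Syk 1457239_at from -0.0331 to 0.58. Of 464 values of 29 other named genes, 443 kept direction and call, 20 lost the call, and Tnk2 changed sign, at -0.0612 with arrays centred on their medians. The 29 did not include Fcer1g, Ubash3b or Clec1b. Clec1b also changed sign, at 0.07 with the values as deposited (limma adjusted p 0.593). The cause of these changes was not tested. With the values as deposited the median of all tested probe sets was shifted by 0.149 on the log2 scale and with median centring by -0.0467. Signal over background limits what can be said of Yes1 and Fgr.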
